A study of Homo sapiens with 8 samples.

Results

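The origins described here were chosen by peak calls. They are the ORC2Δ origins on chromosomes 1 to 22 and X that overlapped an ORC5Δ origin by 1 bp or more and overlapped no origin of the parental (WT) or ORC1Δ line. Of 37811 ORC2Δ origins, 3688 met this rule (9.75%, 95% Wilson interval 9.46% to 10.1%). The other ORC2Δ origins were called in all 4 lines (18199), in ORC2Δ cells alone (4806), in the 3 knockout lines without WT (4167), in WT, ORC2Δ, and ORC5Δ cells without ORC1Δ (3760), with ORC1Δ only (1463), with WT only (875), or with WT and ORC1Δ (853).

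SNS-seq sequences short nascent strands, the newly made pieces of DNA that mark where replication began, after size selection and digestion with lambda exonuclease. WT stands for the p53−/− clone of HCT116, an epithelial colon cancer line. Its derivatives ORC1Δ, ORC2Δ, and ORC5Δ carry an inactivated ORC1, ORC2, or ORC5 gene made with CRISPR–Cas9, so every line lacks p53. Each line had 2 biological replicates (8 samples), and origins were the MACS2 peaks that both replicates shared. The lines also differ in which other ORC subunits remain bound to DNA, with the most lost in ORC2Δ cells and the fewest in ORC1Δ cells. A shortened ORC2 protein was reported elsewhere at a trace level in ORC2Δ cells. The study itself did not detect it, either in lysates or after immunoprecipitation of ORC3.

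The origin recognition complex (ORC) is an ATPase of 6 subunits that, with CDC6 and CDT1, loads the MCM2–7 helicase on DNA in G1 phase. Loaded helicases are then activated in S phase, and only some of them start forks. ORC1 joins a core of the other subunits late in assembly, whereas ORC2 and ORC5 belong to that core. Human origins have no strict consensus sequence, and SNS-seq peaks are often found near G-rich motifs, CpG islands, and transcription start sites.

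Sequences of members are shown first because a few of them differ in kind from the rest. The first 4 are the 3 members with the highest fold over WT and the wide member with the highest GC skew, and simple repeats fill much of each. Capitals mark perfect runs of at least 3 copies of a unit of 2 to 4 bases, on the forward strand of hg38, and make up 86, 84, 88, and 116 of the 200 bases. The windows of 200 bases around the midpoint lie at chr12:132181277-132181476, chr7:27368120-27368319, chr13:21971308-21971507, and, in an intron of SDK1, chr7:4125085-4125284. EVX1, named in the label of 1 member, is its nearest protein-coding gene, at a distance of 117389 bp.
chromosome 12 member: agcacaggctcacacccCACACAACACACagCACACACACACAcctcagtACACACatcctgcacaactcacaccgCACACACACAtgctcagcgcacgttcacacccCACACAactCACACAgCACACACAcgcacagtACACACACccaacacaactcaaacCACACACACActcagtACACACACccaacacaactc
chromosome 7 member near EVX1: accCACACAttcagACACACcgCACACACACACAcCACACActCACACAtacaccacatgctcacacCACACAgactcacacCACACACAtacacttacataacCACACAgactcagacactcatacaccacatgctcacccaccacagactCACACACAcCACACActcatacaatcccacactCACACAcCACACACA
chromosome 13 member: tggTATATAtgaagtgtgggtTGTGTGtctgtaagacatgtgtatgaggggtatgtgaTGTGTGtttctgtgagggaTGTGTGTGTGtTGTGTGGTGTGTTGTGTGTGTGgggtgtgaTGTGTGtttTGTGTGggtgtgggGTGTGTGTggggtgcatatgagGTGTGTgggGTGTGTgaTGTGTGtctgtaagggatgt
SDK1 member: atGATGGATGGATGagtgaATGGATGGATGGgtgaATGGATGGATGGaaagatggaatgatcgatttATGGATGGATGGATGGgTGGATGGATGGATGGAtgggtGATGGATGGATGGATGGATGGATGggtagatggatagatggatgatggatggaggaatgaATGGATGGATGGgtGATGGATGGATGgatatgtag

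The second set holds members that lie in genes of licensing and colorectal cancer, and a member of low fold. Here capitals mark windows of 25 bases that reach the G4Hunter limit used for the motif, a score of runs of G or C that could fold as a G-quadruplex. The windows are chr3:127618411-127618610 in an intron of MCM2, chr18:51042112-51042311 in an intron of SMAD4, chr17:65537746-65537945 across an exon of AXIN2, and chr19:21867011-21867210 between genes. The window of the lowest-ranked member, chr6:114340630-114340829 in an intron of HS3ST5, is not printed. It had 0 bases in capitals, although that member reached the limit outside the window.
MCM2 member: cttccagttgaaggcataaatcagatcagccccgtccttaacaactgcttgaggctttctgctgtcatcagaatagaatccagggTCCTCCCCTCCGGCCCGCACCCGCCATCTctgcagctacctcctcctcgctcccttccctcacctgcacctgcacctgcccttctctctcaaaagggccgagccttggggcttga
SMAD4 member: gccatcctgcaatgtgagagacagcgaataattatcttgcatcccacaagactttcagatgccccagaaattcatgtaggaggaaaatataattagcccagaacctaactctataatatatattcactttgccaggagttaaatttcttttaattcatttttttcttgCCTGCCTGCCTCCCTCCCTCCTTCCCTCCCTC
AXIN2 member: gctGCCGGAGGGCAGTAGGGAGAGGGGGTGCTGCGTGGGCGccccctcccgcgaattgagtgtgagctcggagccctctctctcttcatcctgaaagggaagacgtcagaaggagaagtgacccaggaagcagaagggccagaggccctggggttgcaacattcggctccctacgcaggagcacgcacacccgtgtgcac
chromosome 19 member of low fold: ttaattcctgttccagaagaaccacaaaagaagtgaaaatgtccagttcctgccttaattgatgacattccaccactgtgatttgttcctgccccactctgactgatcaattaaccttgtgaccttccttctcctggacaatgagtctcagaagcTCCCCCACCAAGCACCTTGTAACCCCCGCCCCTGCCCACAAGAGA

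Counted on ORC5Δ intervals, the same overlap rule gave 3692 ORC5Δ origins that were shared only with ORC2Δ (8.93% of 41328). The other pairs of knockout lines had fewer origins to themselves. ORC1Δ and ORC2Δ alone shared 1463 ORC2Δ origins (3.87% of the ORC2Δ list), and ORC1Δ and ORC5Δ alone shared 2075 ORC5Δ origins (5.02% of the ORC5Δ list). The ORC5Δ, ORC2Δ, ORC1Δ, and WT lists held 41328, 37811, 33530, and 30195 origins, and the part of list length in these shares was not tested.

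**Figure D1:**
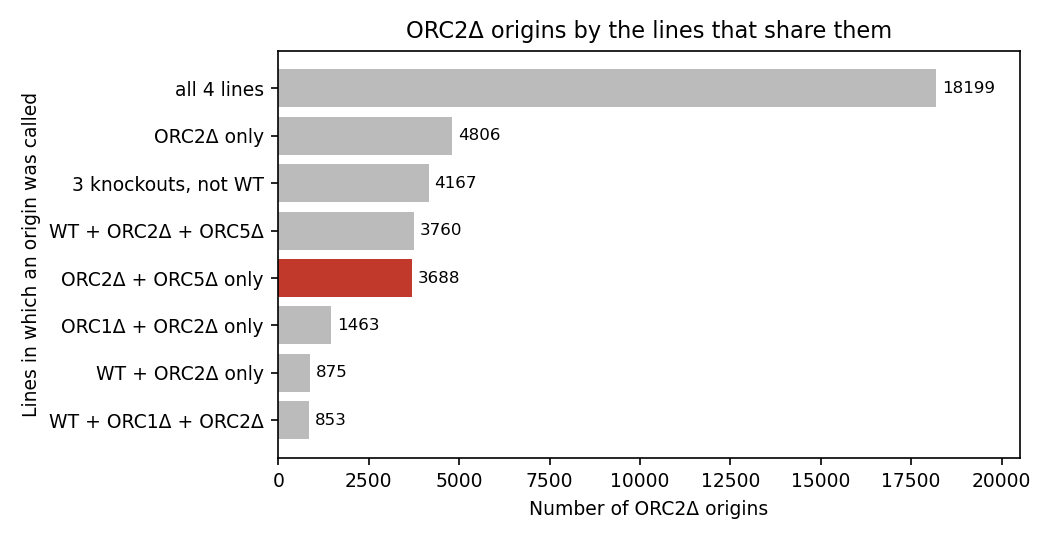
Number of ORC2Δ origins (x axis) by the set of lines in which an origin was called (y axis), each origin counted once. The red bar holds the 3688 origins of ORC2Δ and ORC5Δ cells only, and the longest bar the 18199 origins of all 4 lines.

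The calls of both lines fell on nearly the same bases. The median overlap was 387 bp, or 93.7% of the ORC2Δ interval and 93.9% of the ORC5Δ interval, and the midpoints lay a median of 30.8 bp apart (interquartile range 12.5 to 61 bp). An overlap of at least 50% of both intervals was seen for 3568 members (96.7%), and 7 members overlapped 2 ORC5Δ origins. The nearest WT origin was a median of 31995 bp away. It was within 10 kb for 1126 members (30.5%) and farther than 100 kb for 968 (26.2%).

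At the edge of the rule, the smallest overlap with an ORC5Δ origin was 74 bp, at chr17:68035992-68036333 across the 5′UTR of KPNA2, which encodes an importin. The member closest to a WT origin was 8 bp away from it, at chr8:145002513-145003220, and the one closest to an ORC1Δ origin was 42 bp away, at chr7:158910255-158910914 in DYNC2I1. Just outside the rule, an origin in an intron of IL4 (chr5:132680599-132681022) overlapped a WT origin by 28 bp, an origin at chr2:3651312-3651801 overlapped an ORC1Δ origin by 115 bp, and an ORC2Δ origin in SRRM3 (chr7:76223335-76224008) missed an ORC5Δ origin by 55 bp. A gap of 500 bp to WT and ORC1Δ origins was kept by 3546 members.

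Reads were present in WT at every member. The 2 tables used give merged read counts of WT and a knockout line in the joined origins of that pair, so there is no spread between replicates for any value below. All 3688 members had counts in both tables, and no filter on low counts was applied. The table of WT and ORC1Δ held none of them, so ORC1Δ reads at these positions were not analysed here. In the ORC2Δ table, the members had a median of 80 reads in WT (interquartile range 67 to 101, lowest 27, highest 1413) and 99 in ORC2Δ cells (83 to 125, lowest 50, highest 1678). In the ORC5Δ table, the medians were 80 in WT (67 to 102) and 107 in ORC5Δ cells (90 to 134). In 7 members the ORC5Δ side had 2 table origins, of which the first was used, and 18 were joined there with a WT origin.

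Divided by each line's total in the table and given as RPM, the WT and knockout levels nearly coincided. The medians were 12.05 RPM in WT and 12.7 RPM in ORC2Δ cells, and 11.6 RPM in WT and 12.6 RPM in ORC5Δ cells. The median log2 fold over WT was 0.06 in ORC2Δ (95% interval of the median 0.05 to 0.07) and 0.09 in ORC5Δ cells (0.09 to 0.10). Both comparisons use the same merged WT samples. The rule used the presence of a call in these same comparisons, so the folds describe the members and test nothing.

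The share of members up by 1.5-fold, the limit used by the study, was close to that of all origins. In ORC2Δ cells 162 members were up (4.39%), beside 4.65% of all 44170 origins of that table, and 6 were down, beside 3.58% of all origins. The other classes without WT had more up in ORC2Δ cells. These were 12.3% of origins of ORC2Δ alone, 15.6% of those of the 3 knockout lines, and 18.5% of those with ORC1Δ only. The classes with WT had 0.559% to 1.79% up. The order of the shares up turned with the scaling, to 5.53% of members and 5.25% of all origins with median-of-ratios size factors and to 5.10% and 4.96% after GC correction. In ORC5Δ cells 95 were up (2.58%), beside 2.08% of all 46463 origins, and 1 was down, beside 0.68%. A total of 68 members were up in both tables (1.84%), beside 1.98% of the 31542 ORC2Δ origins with a count in both tables. A further 94 were up in ORC2Δ cells alone and 27 in ORC5Δ cells alone. For 3492 members (94.7%) both folds stayed under 1.5 in either direction. The RPM was above that of WT in both lines at 1863 members (50.5%), below it in both at 786 (21.3%), and on opposite sides at 1039 (28.2%). Apart from the 68 up in both, these joint counts were made for members only, without a share over all origins beside them. In ORC2Δ cells 40.1% of members were below WT, beside 56.0% of all origins, and in ORC5Δ cells 30.7%, beside 50.6%.

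The members had fewer WT reads than origins that WT did have, with some overlap. The rule asks for no WT call at members, and the classes compared here have one. The order is therefore largely built in and only its size is described. The ORC2Δ origins shared with WT and ORC5Δ but not ORC1Δ had a median of 111 WT reads (92 to 141) and 118 ORC2Δ reads (97 to 153). At least 92 WT reads, the lower quartile of that class, were found at 1253 members (34.0%), and at least 111 at 703 (19.1%). Of that class, 397 origins (10.6%) had 80 WT reads or fewer, the member median. Origins of all 4 lines had a median of 166 WT reads. Per kilobase of origin, the median was 181 WT reads and 221 ORC2Δ reads at members, against 211 and 225 at that class and 255 and 297 at origins of all 4 lines.

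Members made up 20.4% of the 10% of ORC2Δ origins with the fewest ORC2Δ reads and 1.35% of the 10% with the most (Wilson intervals 19.2% to 21.8% and 1.03% to 1.77%). Their share also fell with width, from 19.9% of the narrowest 10% to 2.94% of the widest 10%. Read level and width thus moved with membership, and the part of read level in the sequence differences was not tested. Membership rests on peak calls made from the reads of these lines, so both trends may be partly built in.

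**Figure D2:**
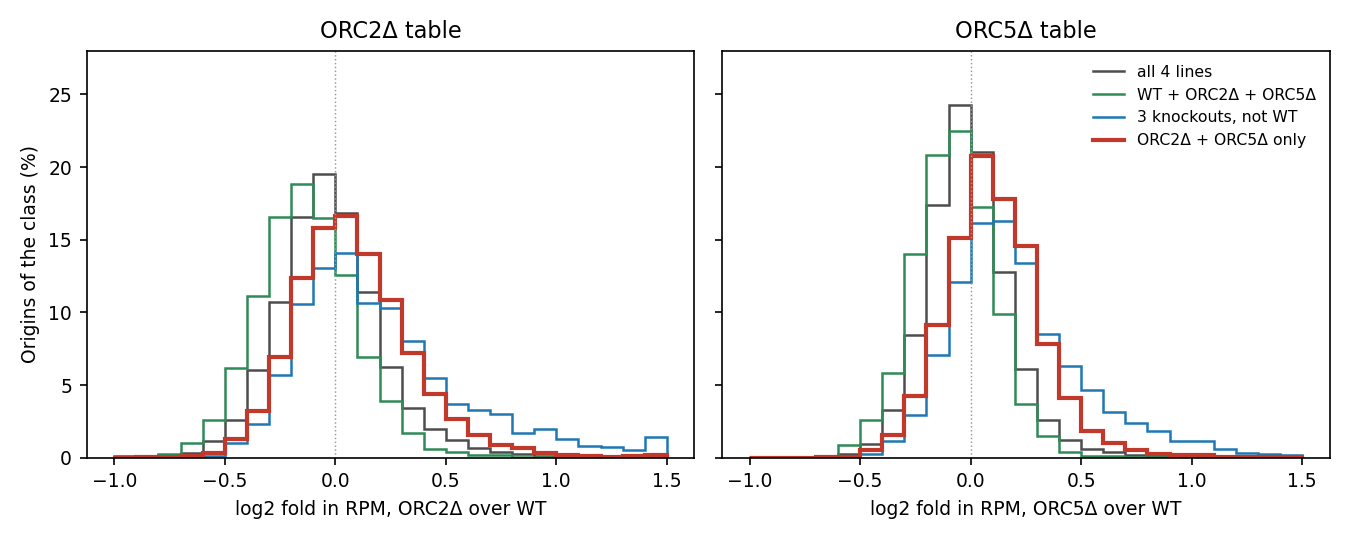
Share of the origins of each class (y axis, %) by log2 fold in RPM over WT (x axis, bins of 0.1, outer values in the end bins) in the ORC2Δ and ORC5Δ tables. The red curve of the 3688 members peaks near 0 in both tables, to the right of the origins of all 4 lines and with a shorter upper tail than the origins of the 3 knockout lines without WT.

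The 3 members of highest fold, ranked by the smaller of both log2 folds among members with at least 100 reads of both lines together in each table, all lay outside protein-coding genes. The chromosome 12 member, between 132181170 and 132181583, had 27 WT reads and 105 ORC2Δ reads in one table, and 27 WT reads and 111 ORC5Δ reads in the other. Its log2 fold was 1.73 in ORC2Δ (95% Clopper-Pearson interval 1.10 to 2.39) and 1.73 in ORC5Δ cells (1.11 to 2.39). These intervals cover counting error only, and reads are not independent molecules where PCR copies remain. They do not allow for the choice of the 3 as extremes on these same counts. For none of the 3 did WT reads alone reach the limit of 100 reads. The 27 WT reads equalled the lowest WT count of any member in either table. The chromosome 7 member from 27367883 to 27368556, in the lncRNA gene ENSG00000224322 and 117389 bp from the homeobox gene EVX1, had 40 WT and 135 ORC2Δ reads, and 39 WT and 150 ORC5Δ reads. Its level was 6.02 RPM in WT and 17.3 RPM in ORC2Δ cells, and 5.67 and 17.6 RPM in the ORC5Δ table. The chromosome 13 member from 21970833 to 21971983 had 68 WT and 267 ORC2Δ reads, and 27 WT and 87 ORC5Δ reads over a narrower ORC5Δ table origin, with log2 folds of 1.74 (1.35 to 2.15) and 1.38 (0.74 to 2.06). All 3 were strongly skewed between G and C, at −0.66, −0.87, and 0.87 (the excess of G over C on the forward strand, as a share of both).

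The lowest-ranked members had a lower RPM in both knockout lines than in WT. They too were picked as extremes on these counts, which the intervals do not allow for. A member in an intron of HS3ST5, which encodes a heparan sulfate sulfotransferase, had 143 WT and 94 ORC2Δ reads (log2 fold −0.84, −1.23 to −0.45) and 125 WT and 108 ORC5Δ reads (−0.52, −0.91 to −0.14). A member in an intron of ECE1, the endothelin-converting enzyme, had 108 WT and 71 ORC2Δ reads (−0.84, −1.29 to −0.39) and 136 WT and 141 ORC5Δ reads (−0.26, −0.61 to 0.09). The chromosome 19 member of low fold, from 21866876 to 21867345, had 138 WT and 102 ORC2Δ reads and 149 WT and 125 ORC5Δ reads (log2 folds −0.67 and −0.56).

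The members with the highest levels were strong in WT as well. The strongest and widest of all, 2399 bp from 57525115 to 57527513 on chromosome 20, covers the 5′UTR of CTCFL, a germline relative of the insulator protein CTCF. It had 213 RPM in WT and 215 RPM in ORC2Δ cells, and 204 RPM in WT and 185 RPM in ORC5Δ cells. A member across the 3′UTR of POLR2A, the largest subunit of RNA polymerase II, had 75.6 RPM in WT and 101 RPM in ORC2Δ cells, and 74.3 and 95.6 RPM in the ORC5Δ table. The third, at TRIM32 inside ASTN2, had 92.9 and 101 RPM, and 89.7 and 94.6 RPM. The WT level of these 3 was thus far above the member median, although WT had no call there.

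Members past 1.5-fold were concentrated among those with a strong GC skew in either direction. The 140 members whose absolute skew was at least 0.6 held 51 that were up in ORC2Δ cells (36.4%, Wilson interval 28.9% to 44.7%) and 46 that were up in ORC5Δ cells (32.9%, 25.6% to 41.0%), out of 162 and 95 members up in all. In the bands of lower skew, members were up in 2.71% to 4.28% of cases for ORC2Δ and 1.22% to 1.61% for ORC5Δ. The 140 had median log2 folds of 0.46 (ORC2Δ) and 0.40 (ORC5Δ). The same band held more up origins in other classes too, with 18.1% and 9.78% among origins of all 4 lines and 57.6% and 48.0% among those of the 3 knockout lines without WT.

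**Figure D3:**
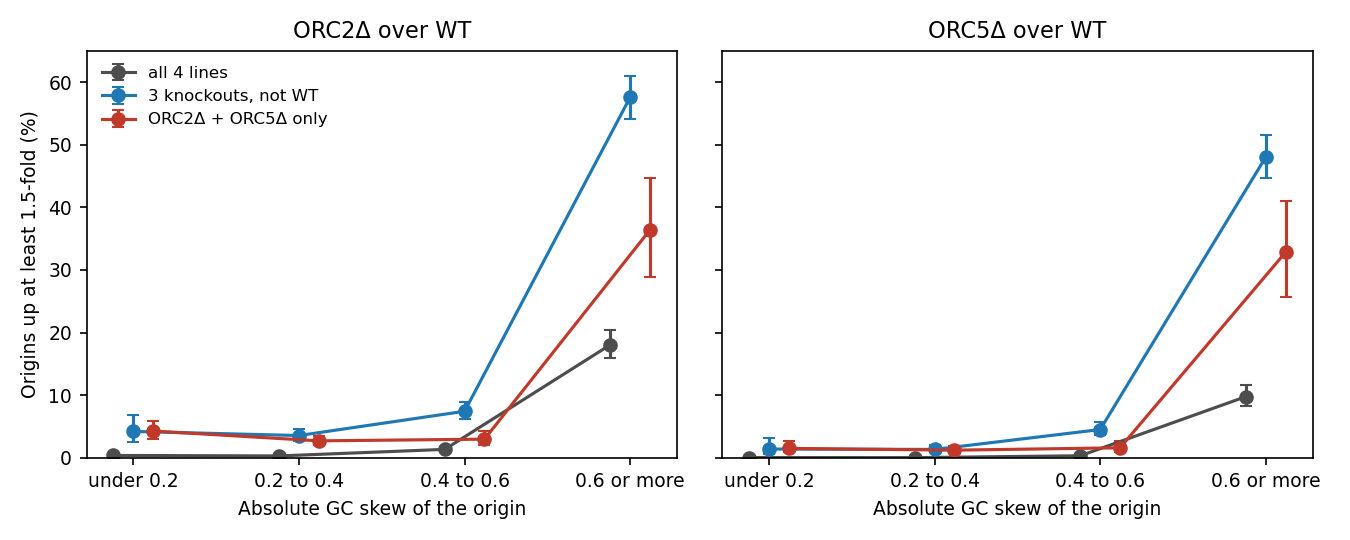
Share of origins up at least 1.5-fold over WT (y axis, %, 95% Wilson interval) by band of absolute GC skew (x axis) for members, origins of all 4 lines, and origins of the 3 knockout lines without WT. In the highest band 36.4% of members were up in ORC2Δ and 32.9% in ORC5Δ cells, between the values of the other classes.

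The 68 members up in both lines differed in sequence from the other 3620. Their median absolute GC skew was 0.657 against 0.313 (Cliff's delta 0.54, 95% interval 0.38 to 0.70, where 0 is no difference and 1 is complete separation). Their GC content was lower, with a median of 47.4% against 51.7% (delta −0.36, −0.47 to −0.24). A G-quadruplex motif was in 41 of the 68 (60.3%, 48.4% to 71.1%) and in 3172 of the others (87.6%). A perfect tandem repeat of 20 bp or more, with a unit of 2 to 6 bases, was in 22 of the 68 (32.4%) and in 308 of the others (8.51%). A run of at least 4 ATCC units, counting every phase of the unit and both strands, was in 5 of the 68 and in 20 of the others. The skewed SDK1 member, with 69 WT and 134 ORC2Δ reads and 74 WT and 161 ORC5Δ reads, is one of this kind (log2 folds 0.72 and 0.81). SDK1 encodes a cell adhesion molecule.

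Among all members, high skew was uncommon and GC content sat between that of other classes. The median GC content was 51.6%. It was lower than in origins of all 4 lines (55.9%, Cliff's delta −0.25, −0.27 to −0.23) and in origins missing only from ORC1Δ (56.0%, −0.25, −0.27 to −0.22), and lower on all 23 chromosomes in each comparison. It was higher than in origins of ORC2Δ alone (49.1%, delta 0.17, 0.14 to 0.19) and of the 3 knockout lines without WT (49.7%, delta 0.14, 0.12 to 0.17). It was close to that in origins of WT and ORC2Δ only (52.5%, delta −0.043, −0.086 to 0.00058). The same held for origins missing only from ORC5Δ (52.0%, delta −0.010, −0.051 to 0.030). These intervals treat origins as independent, although neighbouring origins share their region.

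The absolute GC skew set the members apart from the origins of the 3 knockout lines. Both kinds are absent from the WT list, and the members are also absent from the ORC1Δ list. The median was 0.314 in members and 0.419 in those origins (Cliff's delta −0.39, −0.42 to −0.37), lower on 23 of 23 chromosomes. It was also lower than in origins of ORC1Δ and ORC2Δ only (0.421, delta −0.38, −0.41 to −0.35) and of all 4 lines (0.350, delta −0.15, −0.17 to −0.13). Against origins of ORC2Δ alone the medians were 0.314 and 0.319 (delta −0.016, −0.04 to 0.0081). It was higher than in origins missing only from ORC1Δ (0.290, delta 0.11, 0.079 to 0.13). Both classes with an ORC1Δ call and no WT call thus had medians above 0.4. Among origins of 400 to 600 bp, the median was 0.304 in 1657 members and 0.406 in 2004 origins of the 3 knockout lines. G exceeded C on the forward strand in 1856 members (50.3%).

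**Figure D4:**
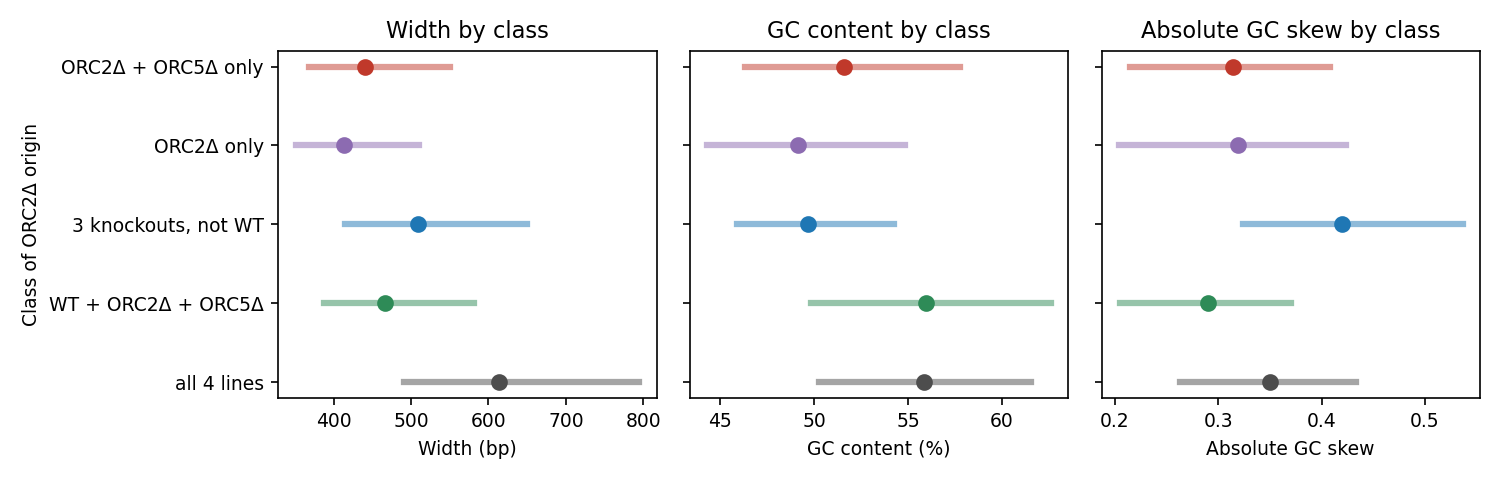
Median (point) and interquartile range (bar) of width (bp), GC content (%), and absolute GC skew for members and 4 other classes of ORC2Δ origins. Members were narrow (440 bp) and had a lower skew (0.314) than the origins of the 3 knockout lines without WT (0.419). Their GC content of 51.6% lay between the knockout-only classes and the classes with WT that are shown here. Other classes are left out.

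ATCC repeats were rare in members. They were in 25 members (0.678%, Wilson interval 0.46% to 0.999%), 260 origins of the 3 knockout lines without WT (6.24%, difference −5.56 percentage points, 95% Newcombe interval −6.37 to −4.80), and 559 origins of all 4 lines (3.07%, difference −2.39 points, −2.73 to −1.99). The share in origins of ORC2Δ alone was 0.791%, and in origins missing only from ORC1Δ it was 0.665%. The differences of the members from these were −0.11 points (−0.48 to 0.27) and 0.013 points (−0.37 to 0.40). At widths of 400 to 600 bp, 11 members (0.664%) and 94 origins of the 3 knockout lines (4.69%) had the repeat.

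The width was a median of 440 bp (ORC5Δ side 443 bp), with 1343 members (36.4%) under 400 bp and 69 at 1000 bp or more. Origins of all 4 lines had a median of 614 bp (Cliff's delta −0.52, −0.53 to −0.50), and those of the 3 knockout lines 509 bp (delta −0.25, −0.27 to −0.23). Origins of ORC2Δ alone were narrower, with a median of 414 bp (delta 0.12, 0.099 to 0.15).

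At gene features the members lay between origins of all 4 lines and those of the 3 knockout lines without WT. A G-quadruplex motif was in 3213 members (87.1%, 86.0% to 88.2%), fewer than in origins of all 4 lines (94.2%, difference −7.03 points, −8.20 to −5.93) and more than in those of the 3 knockout lines (77.6%, difference 9.56 points, 7.89 to 11.2). CpG islands, the unmethylated CpG-rich segments found at many promoters, were overlapped by 442 members (11.98%). That share was 17.8% in all 4 lines (difference −5.79 points, −6.95 to −4.57), 21.9% where only ORC1Δ lacked the origin (−9.88, −11.6 to −8.19), and 6.62% in the 3 knockout lines (5.36, 4.08 to 6.66). The gap to all 4 lines was not seen at widths of 400 to 600 bp, where 12.25% of members and 12.30% of those origins overlapped an island, while 86.0% and 92.6% had a G-quadruplex motif. Exons of protein-coding genes were overlapped by 12.6% of members, against 19.9% and 7.54% of origins of all 4 lines and of the 3 knockout lines. With only the midpoint counted, 5.15% of members lay in exons and 7.92% in CpG islands, and the other classes were not counted that way. The 2 kb upstream of protein-coding genes were overlapped by 9.57%, against 12.4% and 6.38%. A protein-coding start lay in 4.34% of members, against 6.52% and 2.50%. Protein-coding gene bodies held 56.1% of members, and 32.4% lay outside protein-coding and lncRNA genes.

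**Figure D5:**
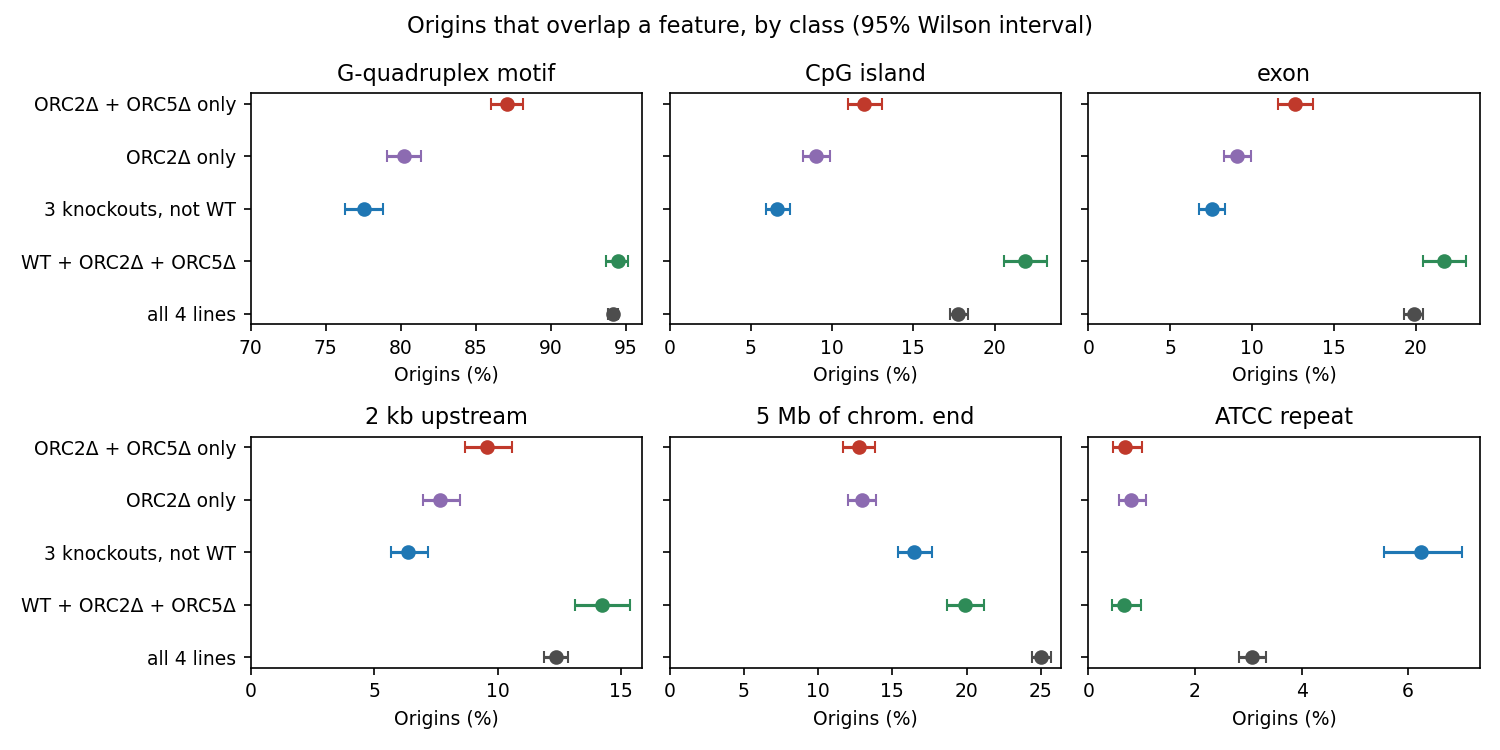
Share of origins (x axis, %, 95% Wilson interval) that overlap each feature or lie within 5 Mb of a chromosome end, by class. The axis for the G-quadruplex motif starts at 70%. Of the classes shown, members lie between both with WT and both others for the first 4 features, and at 0.678% for the ATCC repeat. Other classes are left out.

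Along the genome, a smaller share of members than of origins of all 4 lines lay near chromosome ends. Of the 3688, 470 lay within 5 Mb of an end (12.7%), against 25.01% of origins of all 4 lines (difference −12.3 points, −13.5 to −11.0) and 16.5% of those of the 3 knockout lines (−3.74, −5.30 to −2.18). For origins of ORC2Δ alone the share was 12.9% (difference −0.20 points, −1.62 to 1.25). By chromosome, the share of ORC2Δ origins that were members ran from 6.55% on chromosome 19 (183 of 2795, 5.69% to 7.53%) to 13.2% on chromosome 2 (378 of 2856, 12.04% to 14.5%). Chromosome X followed with 12.9% (57 of 442, 10.1% to 16.3%), and the intervals of chromosomes 2 and X overlap. On chromosome 2, the first 20 Mb had a raised median log2 fold of 0.38 over all ORC2Δ table origins there and held 71 members of 525 ORC2Δ origins (13.5%). From 40 to 60 Mb, where that median was −0.07, 31 of 162 were members (19.1%).

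In 5 Mb blocks whose median log2 fold in the ORC2Δ table was 0.25 or higher, 84 of 666 ORC2Δ origins were members (12.6%, 10.3% to 15.4%). Their median log2 fold was 0.47 in ORC2Δ and 0.12 in ORC5Δ cells. In the blocks between −0.25 and 0.25, 3594 of 36957 were members (9.72%, 9.43% to 10.0%), with medians of 0.06 and 0.09. In blocks at −0.25 or lower, 10 of 188 were members (5.32%, 2.91% to 9.51%), with medians of −0.0098 and 0.07. Block level thus moved with both the share of members and their ORC2Δ folds, and its part was not tested. The block medians include the members, so the trend in their ORC2Δ folds is partly built in. The calls behind the share of members rest on the same lines.

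Members tended to lie beside one another. For 1082 of 3687 members with a following ORC2Δ origin on the chromosome, that origin was a member too (29.3%, 27.9% to 30.8%), against 9.75% of all following origins. The share was 36.3% at gaps under 2 kb, 31.4% at gaps of 10 to 100 kb, and 12.4% at gaps of 100 kb or more, where 12.5% of all following origins were members. The gap between such neighbours had a median of 11568 bp. This was not particular to the members, since origins of ORC2Δ alone followed one another in 34.2% of cases (12.7% of all origins) and those of the 3 knockout lines in 30.0% (11.02%). The longest run was 7 members in 132444 bp of chromosome 10, from 77962457 to 78094900. Of the 438 blocks of 5 Mb with at least 20 ORC2Δ origins, 14 held no member, and the highest share was 10 of 26 (38.5%, 22.4% to 57.5%) on chromosome 5 between 50000001 and 55000000.

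Within protein-coding genes, members were 9.37% of ORC2Δ origins, close to the 9.75% of all ORC2Δ origins. Of 19970 protein-coding genes, 8297 held an ORC2Δ origin and 1613 held at least 1 member (8.08%). No gene held more than 6. RBFOX1, a neuronal splicing regulator gene of 2474 kb, held 6 among its 26 ORC2Δ origins. CUX1, a homeobox gene, had 5 of 22. SLC4A5, a bicarbonate transporter gene, had 5 of 8, and the same 5 lie in the overlapping gene ENSG00000264324. PID1, an adaptor protein gene of 421 kb on chromosome 2, had 5 ORC2Δ origins and all 5 were members.

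The PID1 members, in a gene named for how many it held, serve as an example of the counts. In the ORC2Δ table their WT reads were 94, 106, 55, 136, and 59, and their ORC2Δ reads 111, 115, 76, 132, and 67. The first 2 of them share 1 origin in the ORC5Δ table, and the 4 origins there had 154, 56, 134, and 68 WT reads and 170, 74, 172, and 114 ORC5Δ reads. The log2 folds ran from −0.28 to 0.23 for ORC2Δ and from −0.17 to 0.44 for ORC5Δ. In SLC4A5, 4 of the 5 members had ORC2Δ log2 folds from −0.19 to 0.41. The fifth, from 74329633 to 74330559 with a GC skew of 0.90, had 87 WT and 227 ORC2Δ reads and 79 WT and 190 ORC5Δ reads, log2 folds of 1.15 and 0.96.

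Of 31 genes for licensing and initiation of replication, 11 held an ORC2Δ origin and 1 held a member. This was MCM2, a subunit of the replicative helicase, whose only ORC2Δ origin, from 127618246 to 127618776 in an intron, had 83 WT and 107 ORC2Δ reads and 67 WT and 93 ORC5Δ reads (log2 folds 0.13 and 0.16). Of 20 large genes of common fragile sites, regions prone to breakage under replication stress, 3 held members, among them RBFOX1 with 6 and DAB1, a reelin adaptor, with 1 of 13 ORC2Δ origins. Members were 11 of the 99 ORC2Δ origins of this list (11.1%), against 9.37% in all protein-coding genes. Per Mb of gene, the list held 0.345 members and all protein-coding genes 1.61. ORC2Δ origins of every class were sparse there too, with 99 in 31.9 Mb against 23680 in 1376 Mb. The 6 RBFOX1 members had ORC2Δ log2 folds from −0.22 to 0.39 and ORC5Δ log2 folds from −0.30 to 0.46. The DAB1 member had 85 WT and 113 ORC2Δ reads and 70 WT and 106 ORC5Δ reads (0.18 and 0.29).

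Of 22 genes often altered in colorectal cancer, 3 held 1 member each, 3 of 37 ORC2Δ origins (8.11%). SMAD4, which carries TGF-β signals, had a member with 59 WT and 88 ORC2Δ reads and 53 WT and 75 ORC5Δ reads (log2 folds 0.34 and 0.19). BRAF, a kinase of the MAPK pathway, had a member with 80 reads in WT and 80 in ORC2Δ, and 112 WT and 144 ORC5Δ reads (−0.23 and 0.05). AXIN2, a feedback inhibitor of WNT signalling, had a member with 91 WT and 109 ORC2Δ reads and 97 WT and 166 ORC5Δ reads (0.03 and 0.47).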

How the data were processed

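SNS-seq libraries of 4 HCT116 p53−/− lines were used (2 biological replicates per line, 8 samples). The authors aligned reads to GRCh38 (hg38) and took as origins the MACS2 peaks common to both replicates. The submitters' processing notes name Trim Galore 0.6.4, Bowtie, MACS2, and bedtools. The deposited lists give start and end only, with no height. The deposited tables hold raw counts of reads, with the replicates of a line merged, in the joined origins of WT and a knockout line. The counting tool is not given in the sources used here. Totals in origins were 6640888 (WT) and 7808290 (ORC2Δ) in one table and 6878409 and 8523971 (ORC5Δ) in the other, which served for RPM scaling. With replicates merged, lines were not tested against each other. Intervals reflect counting error or the spread among origins, which are not replicates.

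The members and gene lists were chosen with earlier results of these data known. Genes came from GENCODE release 44 (basic protein-coding transcripts for exons and starts). CpG islands were segments over 200 bp with at least 50% GC and an observed over expected CpG above 0.6. Named origins were the 3 highest and 3 lowest by the smaller log2 fold with at least 100 reads of both lines together in each table, the 3 whose smaller knockout RPM was highest, the widest, the most skewed of at least 500 bp, those at the edge of the rule, the 5 genes with most members (ties included), and members in 3 gene lists. Some genes that this rule names are not reported here. Alternatives covered the overlap rule, the scaling, read filters, GC correction (running median over 1001 origins), the window, the midpoint, and leaving out 5 Mb blocks whose median ORC2Δ log2 fold exceeded 0.25 in size. The comparisons within members by skew, by both folds, by width, and by neighbours were added after the data were seen. Scripts were tested on simulated data. The tools were samtools 1.23.1 and Python 3.11.15 with numba 0.67.0, pysam 0.24.0, scipy 1.17.1, pandas 2.3.3, and numpy 2.4.6.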

Additional observations from a re-analysis of the deposited data

How the results depend on the processing

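No paired analysis was possible because the deposited tables merge the replicates of a line. The number of members ranged from 3546 to 3692 under the other overlap rules (3661 connected groups). The median log2 fold in ORC2Δ moved to 0.10 with median-of-ratios size factors and 0.088 after GC correction, and that in ORC5Δ to 0.10 with scaling by origins of all 4 lines and 0.071 at 200 reads or more. The share up in ORC2Δ became 5.53% with size factors, where 5.25% of all origins were up, so its order against all origins turned (5.10% against 4.96% after GC correction). The share up in ORC5Δ became 1.68% at 200 reads or more, with no share of all origins under that filter to set beside it. With a 2-fold limit, 28 members (0.759%) were up in ORC2Δ, a smaller share than the 631 of all 44170 origins. In ORC5Δ, 13 members (0.352%) were up, a larger share than the 125 of all 46463 origins. Counted on ORC5Δ intervals, the width delta against all 4 lines was −0.54. In a window of 500 bp, the delta against all 4 lines was −0.28 for GC content and −0.29 for absolute GC skew, and the skew delta against the 3 knockout lines was −0.43. With the midpoint in the feature, 7.70% of members were upstream of genes, 5.15% in exons, and 7.92% in CpG islands. A G4Hunter score of 2 left 55.6% with a motif. Members were 8.93% of ORC5Δ origins, and 9.38% of ORC2Δ origins with a gap of 500 bp to WT and ORC1Δ. Outside 5 Mb blocks whose median ORC2Δ log2 fold exceeded 0.25 in size, 13.2% of chromosome 2 origins were members. Apart from that order of shares up, no median fold, Cliff's delta, or fold of the 6 named origins changed sign.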
